A study of Mus musculus with 9 samples.

Results

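Small RNA sequencing of whole kidneys from mouse embryos at embryonic day 16.5 also caught pieces of the RNAs that build and service the cell's machinery: ribosomal RNA, transfer RNA, spliceosomal and nucleolar RNA, and other small noncoding families of Rfam, a catalogue of RNA families. The rows followed here are those of the deposited count tables classed as rRNA (6 rows), tRNA (2), snRNA (11), snoRNA (284) or other Rfam small noncoding RNA (224), which makes 527 of 4074 named rows. A further 72 of the 599 rows in these 5 classes were left out because their description names bacterial or archaeal RNA. Each row is an Rfam family and can gather reads from many gene copies, so that the tRNA row holds tRNAs of many kinds, beside a separate row for selenocysteine tRNA. Of the 527 families, 264 had fewer than 10 reads over all 9 libraries and 197 were read in every library.

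The 9 libraries formed 3 groups of 3: DROSHA knockout kidneys, kidneys carrying a DROSHA-E1147K transgene, and wild-type control kidneys. The RNase III enzyme DROSHA cuts the hairpins of miRNAs out of their primary transcripts in the nucleus, and the E1147K change lies in its catalytic part. The series asks how losing or mutating DROSHA affects kidney development and Wilms tumor, a childhood kidney cancer. The labels name neither the mouse lines, nor the promoter of the transgene, nor the cells in which Drosha was changed, so every value describes a whole kidney with all its cell types. Drosha mRNA is not measured by this assay, and the genotypes were not checked here. Whether the 3 libraries of each group stem from different animals is not stated, and a p-value here covers the spread from library to library, which may be technical.

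Ribosomal RNA carries out translation, tRNA brings the amino acids, and the U-rich snRNAs remove introns. Box C/D and box H/ACA snoRNAs guide methylation and pseudouridylation of rRNA in the nucleolus, and most are cut out of introns of host genes for ribosomal proteins and other growth-related transcripts. Most of these RNAs are longer than a miRNA, and in a small RNA library they appear as fragments short enough to be sequenced. A read count therefore counts fragments that entered the library, and levels of different families cannot be set against each other as molecules.

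Sequences of 4 mouse genes of families described here are given as examples (GENCODE vM21, GRCm38, transcript strand). The counts do not tell from which gene copies, or which parts of them, the reads came. Snord93 (chromosome 5:23852210-23852280, plus strand) stands for one of the snoRNA families with the smallest p-values. Snord104 (chromosome 11:106500993-106501062, plus strand) is a snoRNA gene that a row with a predicted miRNA also covers. Capitals mark box C, searched as NTGATGA in the first 25 bases, and box D, searched as CTGA in the last 25 bases, on the transcript strand only. Rny1 (chromosome 6:47788069-47788180, minus strand) and Rny3 (chromosome 6:47781624-47781725, plus strand) are Y RNA genes and carry no mark.
Snord93: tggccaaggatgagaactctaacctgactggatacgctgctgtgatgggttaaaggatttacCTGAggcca
Snord104: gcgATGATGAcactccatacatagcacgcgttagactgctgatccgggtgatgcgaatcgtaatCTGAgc
Rny1: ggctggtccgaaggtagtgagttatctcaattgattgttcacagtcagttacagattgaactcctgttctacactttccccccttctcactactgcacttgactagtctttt
Rny3: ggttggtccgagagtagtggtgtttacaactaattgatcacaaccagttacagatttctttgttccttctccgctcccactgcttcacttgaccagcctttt
Of 1507 annotated mouse snoRNA genes, of which the H/ACA kind is not built on these boxes, 21.6% held the box C letters in that window, 57.5% the box D letters in theirs and 20.4% both. Snord104 held both, while Snord93 held the box D letters alone, which says only that the box C letters searched were not in that window.

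Between 27182202 and 37988633 reads per library carried a small RNA name, and 167270 to 430406 of them fell to the 527 families. A few families made up most of these reads: 6 rows took 86.7% of the 2218216 reads over all libraries. They were transfer-messenger RNA (32.5%), 5.8S rRNA (25.6%), Y RNA (11.9%), small subunit rRNA (6.49%), tRNA (6.08%) and U3 (4.14%). By class, other Rfam families held 48.3% of the reads, rRNA 33.0%, snoRNA 11.8%, tRNA 6.09% and snRNA 0.791%. Transfer-messenger RNA (tmRNA) is known as a bacterial RNA that rescues stalled ribosomes. Its row was kept because its description names no bacterium, as were rows for CRISPR repeats, riboswitches, a 23S rRNA pseudoknot and retroviral elements, and a family name does not give the organism from which the reads came.

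With the tmRNA row included, structural RNA reads took a larger share of every knockout library than of any control. The 527 families together made up 1.21%, 1.06% and 0.665% of counted reads in knockout 1, 2 and 3, against 0.467%, 0.562% and 0.731% in the transgene libraries and 0.452%, 0.498% and 0.645% in the controls. The means were 0.977% ± 0.281 in knockout, 0.587% ± 0.134 in transgene and 0.531% ± 0.101 in control kidneys (SD, n = 3 each). Knockout 3 lay within the range of the transgene libraries and just above the highest control. Without the tmRNA row the share was 0.776%, 0.779% and 0.359% in the knockout and 0.296%, 0.361% and 0.549% with the transgene. It was 0.303%, 0.332% and 0.499% in controls, so that knockout 3 fell below control 3. In whole kidneys, fewer cells of a type and less RNA per cell cannot be told apart.

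The classes did not share this pattern. rRNA stood at 0.478%, 0.525% and 0.149% in the knockout libraries, at 0.126%, 0.125% and 0.215% in the transgene libraries and at 0.127%, 0.111% and 0.242% in the controls, so that the difference lay in knockout 1 and 2. tRNA was the most even class in the knockout, at 0.0580%, 0.0574% and 0.0546%, against 0.0273%, 0.0425% and 0.0569% with the transgene and 0.0218%, 0.0370% and 0.0289% in controls. All 3 knockout libraries lay above all 3 controls for tRNA, but transgene 3 reached the knockout level. Other Rfam families also lay above every control and every transgene library, at 0.575%, 0.380% and 0.393% in the knockout, 0.242%, 0.321% and 0.352% with the transgene and 0.231%, 0.271% and 0.256% in controls. Most of that came from the tmRNA row. Without it the class stood at 0.142%, 0.101% and 0.0867% in the knockout, 0.0720%, 0.120% and 0.170% with the transgene and 0.0817%, 0.106% and 0.110% in controls, and the groups overlapped.

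snoRNA overlapped between the 3 groups, at 0.0887%, 0.0897% and 0.0636% in the knockout, 0.0679%, 0.0699% and 0.0998% with the transgene and 0.0694%, 0.0741% and 0.109% in controls. snRNA was the smallest class and varied more within groups than between them, from 0.00442% to 0.00861% in the knockout, from 0.00319% to 0.00816% with the transgene and from 0.00297% to 0.00882% in controls. The share of snRNA in control 1, the smallest here, has a Wilson 95% interval of 0.00281% to 0.00314%, which overlaps that of transgene 1 (0.00302% to 0.00337%) and lies below those of the other 7 libraries. The reads carry no molecular identifiers, and such intervals cover counting error only.

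**Figure D1:**
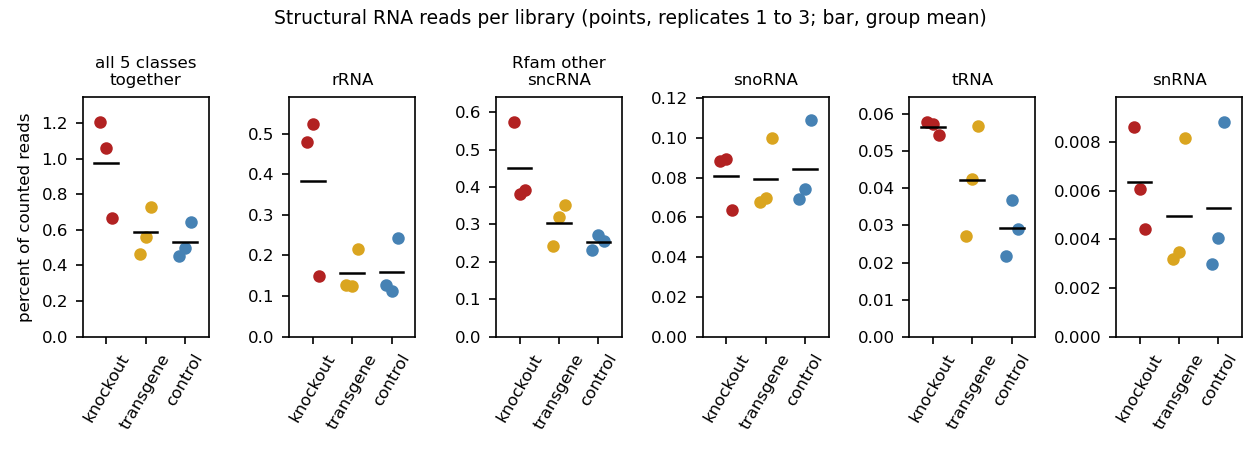
Percent of counted reads in each library for all 5 classes together and for each class, with knockout, transgene and control libraries from left to right in each panel, replicates 1 to 3 as points and the group mean as a bar; each panel has its own scale from 0. Knockout 1 and 2 stand at 0.478% and 0.525% for rRNA while knockout 3 stands at 0.149%, whereas the 3 tRNA values of the knockout lie between 0.0546% and 0.0580%.

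No family passed the threshold of edgeR, the main test, in any comparison. Of the 527 families, 155 had enough reads to be tested (6 rRNA, 1 tRNA, 7 snRNA, 115 snoRNA and 26 other Rfam families), among 1941 rows of all classes. By edgeR's quasi-likelihood test with Benjamini-Hochberg adjustment over those 1941 rows, 0 families had an adjusted p under 0.05 in knockout against control, in knockout against transgene or in transgene against control, and so did 0% of all rows. At an unadjusted p under 0.05, 18 families were higher and 0 lower in knockout than in control kidneys, which is 11.6% higher, beside 10.4% higher and 9.22% lower among all rows. In knockout against transgene it was 23 higher and 1 lower, or 14.8% higher, beside 4.38% and 3.97% of all rows. In transgene against control it was 0 higher and 3 lower, beside 4.02% and 3.97%.

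DESeq2, the other tool run, called 7 families higher and 0 lower in knockout than in control kidneys, or 3.65% of 192 higher, beside 3.7% higher and 3.56% lower among all rows. The 7 were U13, tmRNA, SNORD55/SNORD39, SNORD93, the signal recognition particle RNA, U89 and tRNA. In knockout against transgene it called 5 higher and 0 lower, or 5.05% of 99 higher, beside 1.79% higher and 0.856% lower among all rows: U13, tmRNA, small subunit rRNA, SNORD93 and the 23S pseudoknot. It called 0 in transgene against control, beside 0.673% higher and 0.337% lower among all rows.

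The families were also counted by whether the libraries of 2 groups overlapped in CPM (reads per 1e6 named reads, TMM-scaled). All 3 knockout libraries lay above all 3 controls for 19 of the 155 families (12.3%, all rows 10.3%) and below them for 7 (4.52%, all rows 14.4%). They lay above all 3 transgene libraries for 33 (21.3%, all rows 6.49%) and below for 1 (0.645%, all rows 6.13%). The transgene libraries lay above all controls for 0 families (all rows 8.45%) and below for 16 (10.3%, all rows 10.1%). These counts move with the scaling, as do those of all rows. With TMM factors from the structural families the knockout lay above all transgene libraries for 16 families (10.3%, all rows 2.58%) and below for 13 (8.39%, all rows 18.9%). The knockout then lay above all controls for 13 (8.39%, all rows 4.89%) and below for 16 (10.3%, all rows 14.4%), and the transgene above all controls for 8 (5.16%, all rows 10.9%) and below for 8 (5.16%, all rows 1.6%). The log2 fold change was above 0 for 92 of the 155 families in knockout over control (59.4%, all rows 47.6%), for 113 in knockout over transgene (72.9%, all rows 49.6%) and for 45 in transgene over control (29%, all rows 43.8%). Its median was 0.11 for knockout over control, 0.35 for knockout over transgene and -0.19 for transgene over control, beside -0.05, -0.01 and -0.08 over all rows. The medians themselves depend on the scaling: with TMM factors from the structural families alone they were -0.01, -0.04 and 0.04, beside -0.22, -0.41 and 0.16 over all rows, and without TMM factors, on the totals of named rows, they were 0.29, 0.28 and 0.04, beside 0.12, -0.05 and 0.13. The difference between the families' median and that of all rows moved less between these scalings. It was 0.16, 0.36 and -0.10 with the main scaling, 0.21, 0.37 and -0.12 with structural factors and 0.17, 0.33 and -0.09 on named totals. That difference moved more with the libraries and rows used. For knockout over control it was 0.01 without control 1, 0.44 without control 3 and -0.05 for rows of at least 10 CPM. For knockout over transgene it ran from 0.21 without transgene 1 to 0.61 without transgene 3. For transgene over control it ran from -0.33 without transgene 3 to 0.05 without control 3.

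**Figure D2:**
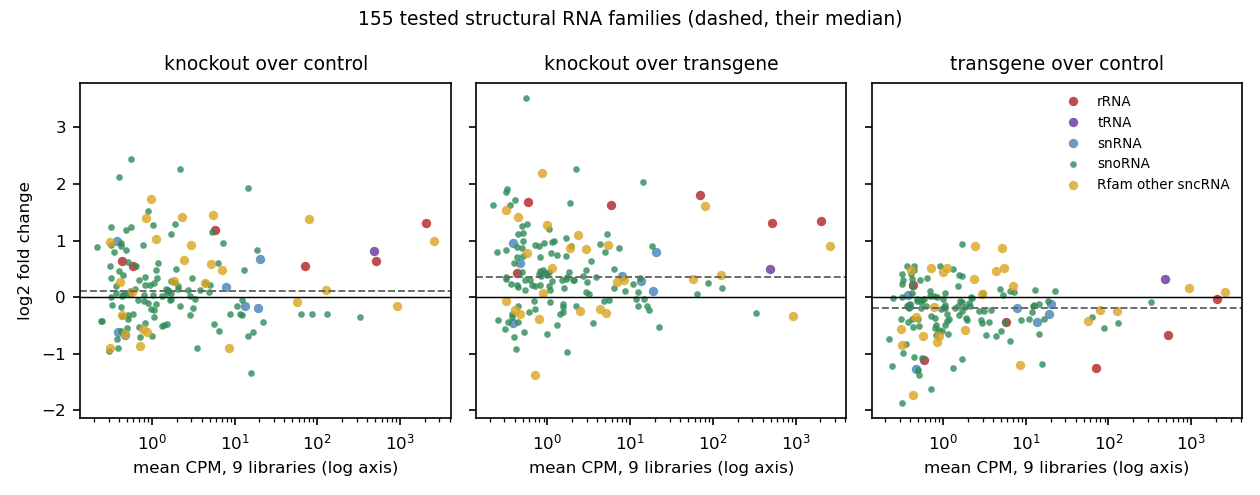
Log2 fold change against the mean level in CPM (log axis) of the 155 tested families, coloured by class, for knockout over control, knockout over transgene and transgene over control, with the median of the families as a dashed line at 0.11, 0.35 and -0.19. The 6 rRNA families lie above 0 in the knockout panels, the 115 snoRNA families lie on both sides of 0 in each panel, and no point passed edgeR's test.

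rRNA is made from a long precursor that yields the small subunit (18S), 5.8S and large subunit (28S) RNAs, while 5S is made separately. All 4 tested cytoplasmic rRNA families had positive log2 fold changes for knockout over control, with a median of 0.60, and all 4 for knockout over transgene, with a median of 1.51, while 0 of 4 were positive for transgene over control (median -0.90). Both knockout counts stayed at 4 under the 5 other scalings tried, and the transgene count became 1 under 4 of them. For transgene over control, large subunit rRNA had a log2 fold change of -1.24, which was -0.12 without control 3. The rRNA class as a whole took a mean of 0.155% of counted reads with the transgene and 0.160% in controls. 5.8S rRNA had 142638, 140696 and 26000 reads in the knockout libraries, 38385, 36159 and 57598 with the transgene and 41371, 26893 and 58073 in controls. Knockout 1 and 2 were far above every other library, and knockout 3 was below all of them. Its log2 fold change was 1.31 (SE 0.57, edgeR adjusted p = 0.252) for knockout over control and 1.34 (SE 0.57, adjusted p = 0.574) for knockout over transgene. Without knockout 1 and 2 these values were -0.73 and -0.80.

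Small subunit rRNA did not show that split. It stood at 706, 796 and 785 CPM in the knockout libraries, 299, 276 and 342 CPM with the transgene and 344, 354 and 766 CPM in controls. All knockout libraries lay above all transgene libraries (log2 fold change 1.32, SE 0.32, edgeR adjusted p = 0.496), while control 3 reached the knockout level (0.64, SE 0.32, adjusted p = 0.296, against control, and 1.19 without control 3). Large subunit rRNA followed it, at 107, 126 and 91.2 CPM in the knockout, 30.5, 24.6 and 38.0 CPM with the transgene and 30.0, 43.7 and 146 CPM in controls, where control 3 was the highest of all 9. Reads of 5.8S per read of small subunit rRNA were 6.03, 6.35 and 1.13 in the knockout, 4.15, 3.72 and 5.16 with the transgene and 3.58, 2.92 and 2.42 in controls. The ratio puts knockout 1 and 2 at the top and knockout 3 at the bottom of the 9 libraries. 5S rRNA was rare, with 159 reads in all.

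The 23S pseudoknot family, whose name refers to bacterial-type large subunit rRNA, had 13.5, 10.3 and 5.77 CPM in the knockout, 2.10, 2.35 and 5.15 CPM with the transgene and 3.33, 4.76 and 4.91 CPM in controls. The knockout libraries lay above the others, knockout 3 by the least, with a log2 fold change of 1.62 over transgene (SE 0.45, edgeR adjusted p = 0.496). The 72 rows that name bacterial or archaeal RNA, left out of the families, moved with the same libraries: they took 0.103%, 0.0667% and 0.0245% of counted reads in the knockout, 0.0117%, 0.0168% and 0.0291% with the transgene and 0.0151%, 0.0246% and 0.0205% in controls. Their part in the rRNA and tmRNA values was not tested.

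In CPM with the main scaling, tRNA and tmRNA were higher in every knockout library than in every other library. For tRNA against the transgene this depended on the TMM factors. As a percent of reads in named rows, the tRNA class stood at 0.0659% in transgene 3 and at 0.0617% in knockout 3. The tRNA row had 616, 654 and 645 CPM in the knockout libraries, 341, 450.4 and 569.7 CPM with the transgene and 276, 478 and 331 CPM in controls. The knockout values lay above all others, with a log2 fold change of 0.82 over control (SE 0.27, edgeR adjusted p = 0.190) and 0.49 over transgene (SE 0.27, adjusted p = 0.589). Neither passed edgeR's threshold, and DESeq2 gave an adjusted p of 0.0415 against control. Selenocysteine tRNA, which serves the few proteins with selenocysteine, had 40 reads in all and was not tested.

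The tmRNA row was the largest of all 527. It had 4592, 3186 and 3619 CPM in the knockout, 2131, 2128 and 1823 CPM with the transgene and 1888, 2135 and 1668 CPM in controls. The knockout libraries stood apart from the other 6, which lay close together, and the log2 fold change was 1.0 over control (SE 0.19, edgeR adjusted p = 0.106) and 0.91 over transgene (SE 0.19, adjusted p = 0.353). DESeq2 gave adjusted p-values of 4.63e-05 and 0.000639. With knockout 1 and 2 left out the difference stayed positive, unlike that of 5.8S rRNA. Left-out rows for tmRNA of named bacteria fell from knockout 1 to knockout 3. The betaproteobacterial row had 185, 83.0 and 32.2 CPM in the knockout, 14.7, 21.7 and 37.6 CPM with the transgene and 23.1, 36.8 and 35.4 CPM in controls. The alphaproteobacterial row had 10.77, 5.465 and 2.14 CPM in the knockout and 0.7739, 2.111 and 0.8609 CPM in controls. Its knockout libraries lay above all controls, like those of the tmRNA row, but not above transgene 1, at 2.782 CPM. The cyanobacterial row had 8.469, 3.2 and 1.392 CPM in the knockout and overlapped both other groups. Whether the tmRNA row shares a source with these rows was not tested.

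**Figure D3:**
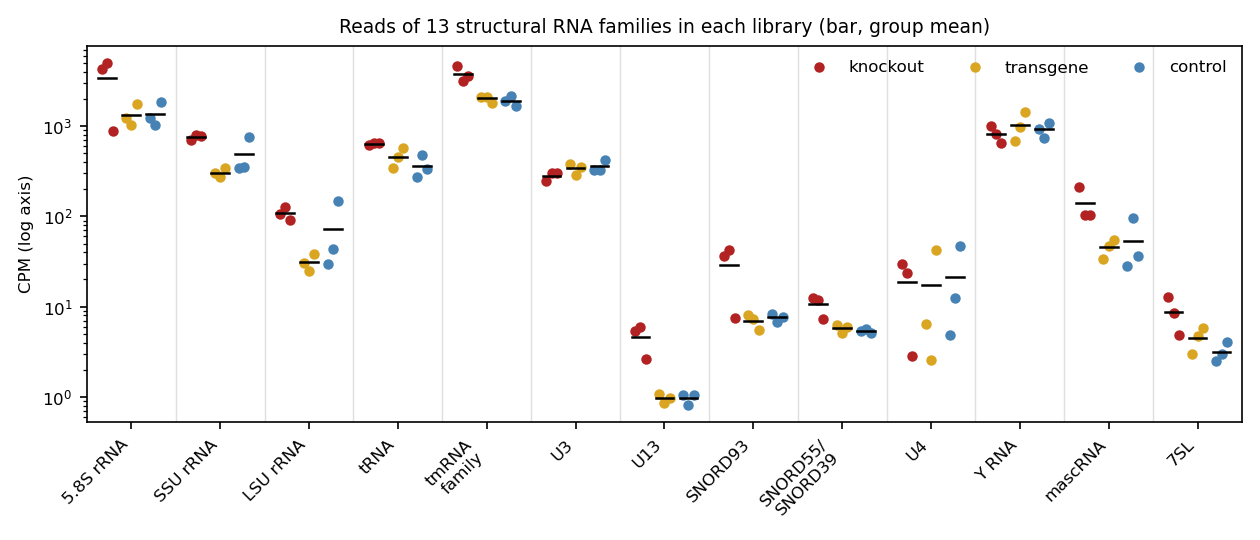
CPM (log axis) of 13 structural RNA families in each library, with knockout, transgene and control from left to right within each family, replicates 1 to 3 as points and the group mean as a bar. With this TMM scaling the 3 knockout points lie above all others for tRNA, tmRNA and U13. For 5.8S rRNA and SNORD93 knockout 3 lies among or below the other groups, and U4 spreads over the same range in all groups.

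No spliceosomal RNA passed the test. Of the major spliceosome list (U1, U2, U4, U5, U6), 4 of 5 families were tested, of which 2 were higher and 2 lower in knockout than in control kidneys, 4 were higher in knockout than in transgene kidneys (1 with TMM factors from the structural families) and 4 were lower with the transgene than in controls (2 with those factors or on totals of named rows), by the sign of the log2 fold change alone. U1, which recognises the start of the intron, had 32.5, 21.0 and 29.3 CPM in the knockout, 11.7, 14.3 and 21.9 CPM with the transgene and 10.3, 14.3 and 27.1 CPM in controls, and the groups overlapped. U6, part of the catalytic centre, stayed between 8.83 and 16.6 CPM and U2, which binds the branch point, between 6.56 and 10.9 CPM over all 9 libraries. U4, which holds U6 inactive until splicing starts, was among the most variable families, with 1002, 651 and 84 reads in the knockout, 201, 90 and 1395 with the transgene and 162, 322 and 1469 in controls. Each group held libraries at both ends of its range. U5 had 11 reads in all.

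Of the minor spliceosome list only U6atac had enough reads to be tested, and its groups overlapped in each comparison. U7, which processes the ends of histone mRNAs, had the smallest p of all families in transgene against control. It stood at 0.259, 0.312 and 0.276 CPM with the transgene and 0.655, 0.614 and 0.797 CPM in controls, which gave a log2 fold change of -1.27 (SE 0.42, edgeR adjusted p = 0.615). The groups did not overlap, but the row held only 131 reads in all 9 libraries. 7SK, which holds back the elongation factor P-TEFb, was between 5.09 and 7.91 CPM in 8 libraries and at 26.1 CPM in control 3.

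snoRNA families made up most of the tested families. Of 115 tested, 65 had a positive log2 fold change for knockout over control (median 0.07), 83 for knockout over transgene (median 0.30) and 29 for transgene over control (median -0.19), which became 50 (-0.07), 49 (-0.08) and 62 (0.04) with TMM factors from the structural families. The medians over all rows were -0.05, -0.01 and -0.08, and -0.22, -0.41 and 0.16 with those factors. Among 70 tested box C/D families (SNORD) the counts were 39, 49 and 20, and among 24 tested box H/ACA families (SNORA) 13, 20 and 3. Of all rows, 47.6%, 49.6% and 43.8% were positive. With TMM factors from the structural families the counts became 33, 28 and 43 for SNORD and 8, 12 and 8 for SNORA. No list of snoRNAs held a family past edgeR's threshold, and DESeq2 called U13, SNORD93, SNORD55/SNORD39 and U89 as given above.

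U3, U8 and U13 take part in cutting and maturing the rRNA precursor rather than in guiding methylation. U3, the most abundant snoRNA, had 244, 300.5 and 301 CPM in the knockout, 384, 285 and 353 CPM with the transgene and 329, 329 and 424 CPM in controls. With the main scaling the knockout lay below all controls, by -0.36 on the log2 scale (SE 0.21, edgeR adjusted p = 0.398). On totals of named rows the 2 groups overlapped for U3, as 0 of the 155 families then had the knockout below all controls. The log2 fold change of U3 over control stayed negative over all settings, from -0.49 to -0.16. U13, which is needed in human cells for acetylation of small subunit rRNA, went the other way and had the smallest p of all families. It had 178, 167 and 78 reads in the knockout, 33, 30 and 32 with the transgene and 35, 21 and 33 in controls. All 3 knockout libraries stood above the other 6, which were nearly equal.

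For U13 this gave 4.65 ± 1.77 CPM in knockout, 0.966 ± 0.109 CPM in transgene and 0.967 ± 0.139 CPM in control kidneys (SD, n = 3 each). The log2 fold change was 2.26 over control (SE 0.35, edgeR adjusted p = 0.105) and 2.26 over transgene (SE 0.35, adjusted p = 0.158), so it did not pass in the full design. DESeq2 gave adjusted p-values of 4.63e-05 and 2.23e-05. edgeR without knockout 3 gave adjusted p-values of 0.0165 and 0.0177. Knockout 3 is the knockout library with the fewest U13 reads, so leaving it out widens the difference and these values add no support. Over all settings tried, the log2 fold change ran from 1.36 to 2.61 over control and from 1.27 to 2.52 over transgene. Reads of U13 per read of U3 were 0.0218, 0.0200 and 0.00881 in the knockout, 0.00278, 0.00298 and 0.00278 with the transgene and 0.00317, 0.00245 and 0.00248 in controls. U8 had 52 reads in all and was not tested.

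Among the guide snoRNAs, SNORD93 split the knockout libraries in the same way as 5.8S rRNA. It had 1212, 1186 and 222 reads in the knockout, 251, 259 and 180 with the transgene and 281, 176 and 240 in controls. Knockout 1 and 2 were high and knockout 3 lay among the controls. The log2 fold change was 1.92 over control (SE 0.56, edgeR adjusted p = 0.184) and 2.04 over transgene (SE 0.56, adjusted p = 0.496), and without knockout 1 and 2 it was -0.10 and -0.08. SNORD10, SNORD20 and MBII-202, chosen after their values were seen, had the same split, with 32.6, 37.2 and 9.78 CPM for SNORD10 in the knockout, beside 12.4 to 16.6 CPM with the transgene and 13.6 to 17.3 CPM in controls.

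SNORD55/SNORD39, a box C/D family, was higher in all 3 knockout libraries. It had 12.6, 11.9 and 7.34 CPM in the knockout, 6.21, 5.16 and 5.92 CPM with the transgene and 5.39, 5.72 and 5.17 CPM in controls. Its log2 fold change over control was 0.97 (SE 0.27, edgeR adjusted p = 0.184; DESeq2 adjusted p = 0.00921). The 6 libraries outside the knockout lay within 5.16 to 6.21 CPM. U89, a Cajal body RNA also known as SCARNA12, had 2.0, 1.19 and 1.22 CPM in the knockout, 0.582, 0.935 and 0.736 CPM with the transgene and 0.298, 0.499 and 0.733 CPM in controls. Its log2 fold change over control was 1.52 (SE 0.41, edgeR adjusted p = 0.184). Of the 17 other families named as Cajal body RNAs, which guide modification of snRNAs, 5 were tested, with 2 log2 fold changes above 0 for knockout over control, 3 for knockout over transgene and 1 for transgene over control.

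The other abundant guide snoRNAs differed less, and none passed the test. SNORD43, from an intron of the ribosomal protein gene Rpl3, had 133, 146 and 96.3 CPM in the knockout, 111, 97.1 and 128 CPM with the transgene and 133, 114 and 212 CPM in controls. SNORD74 and SNORD44, from introns of the noncoding host gene Gas5, ran from 47.0 to 73.7 and from 14.4 to 19.9 CPM in the knockout, from 55.5 to 60.8 and from 19.4 to 29.3 CPM with the transgene and from 69.1 to 77.4 and from 21.7 to 26.7 CPM in controls. SNORD74 was among the steadiest of the tested families, with a within-group SD of 0.20 on the log2 scale, against a median of 0.52 over the 155. SNORD104 ranged over 54.4 to 113 CPM in the knockout, 58.0 to 96.2 CPM with the transgene and 61.0 to 128 CPM in controls. The 4 most abundant box H/ACA families, SNORA24, SNORA13, SNORA42/SNORA80 and SNORA54, lay between 0.970 and 3.80 CPM in all libraries.

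The snoRNAs of imprinted clusters had few reads apart from SNORD64. The SNORD113/SNORD114 family of the Dlk1-Dio3 region had 136 reads in all, at 0.686, 1.19 and 0.509 CPM in the knockout, 0.226, 0.397 and 0.368 CPM with the transgene and 0.268, 0.192 and 0.574 CPM in controls. Knockout 3 lay below control 3, and the family did not pass the test. Of the Snrpn snoRNAs, whose loss is linked to Prader-Willi syndrome in humans, only SNORD64, with 2465 reads in all, was tested, at 5.30 to 9.96 CPM in the knockout, 7.31 to 8.47 CPM with the transgene and 9.48 to 11.1 CPM in controls. SNORD115 and SNORD116 had 22 and 2 reads in all.

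Several snoRNA families were set apart by a library rather than by a group. Among those of at least 10 CPM, U2-19 had 15.7, 19.8 and 0.543 CPM in the knockout, 11, 7.43 and 18.5 CPM with the transgene and 16.4, 17.0 and 24.5 CPM in controls. SNORD30, SNORD78 and Z40 were likewise lowest in knockout 3, at 4.86, 2.55 and 2.75 CPM. U2-19, SNORD30 and Z40 were highest in control 3, at 24.5, 36.2 and 21.2 CPM, as were large subunit rRNA, U4 and 7SK. SNORD69 varied most among the snoRNAs, with 5, 7 and 102 reads in the knockout, 73, 6 and 165 with the transgene and 7, 96 and 3 in controls. These families were chosen after their values were seen.

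**Figure D4:**
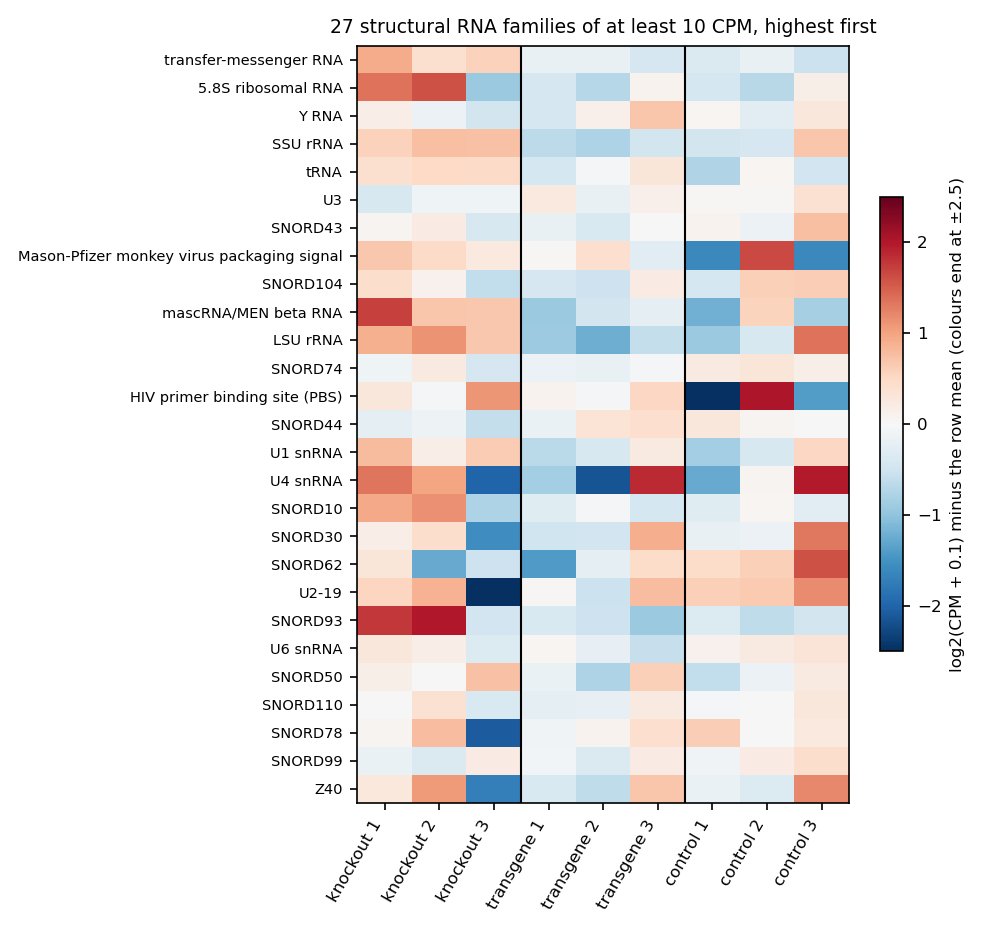
Deviation of each library from the row mean of log2(CPM + 0.1) for the 27 families of at least 10 CPM, highest first, with knockout, transgene and control libraries from left to right. 5.8S rRNA, SNORD10 and SNORD93 are high in knockout 1 and 2 and not in knockout 3, and U4, U2-19, SNORD78 and Z40 are low in knockout 3.

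The other Rfam families of known function are Y, vault and 7SL RNA, the RNA enzymes, and pieces of long noncoding RNAs. Y RNA, which binds the Ro60 protein, was the second largest of the other Rfam families. It had 1016, 813 and 654 CPM in the knockout, 677, 989 and 1452 CPM with the transgene and 934, 739.7 and 1095 CPM in controls, and the groups overlapped throughout. The small Y RNA-like family was higher in the knockout, at 5.13, 3.67 and 2.68 CPM, than in the transgene libraries, at 0.841, 2.41 and 2.09 CPM, and the controls, at 1.55, 1.84 and 0.893 CPM, and did not pass the test. The signal recognition particle RNA (7SL), scaffold of the particle that brings ribosomes to the endoplasmic reticulum, had 12.7, 8.45 and 4.79 CPM in the knockout, 3.01, 4.76 and 5.86 CPM with the transgene and 2.47, 2.99 and 4.05 CPM in controls. It lay above all controls but not above all transgene libraries, with a log2 fold change of 1.45 over control (SE 0.43, edgeR adjusted p = 0.184) and 0.93 over transgene (SE 0.42, adjusted p = 0.574), which was -0.11 over transgene without knockout 1 and 2.

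The MALAT1-associated cytoplasmic RNA (mascRNA) is a tRNA-like piece that RNase P cuts from the end of the nuclear transcript MALAT1, and its family also holds the like piece of MEN beta RNA. It had 211, 104 and 103 CPM in the knockout, 33.8, 47.2 and 55.2 CPM with the transgene and 28, 95.3 and 36.4 CPM in controls. The knockout lay above every other library, though control 2 came close, with a log2 fold change of 1.39 over control (SE 0.52, edgeR adjusted p = 0.217) and 1.62 over transgene (SE 0.52, adjusted p = 0.496). RNase P itself, which trims tRNA precursors, had 5.64, 1.69 and 5.37 CPM in the knockout, 0.841, 2.38 and 3.80 CPM with the transgene and 2.08, 1.73 and 2.90 CPM in controls. The related RNase MRP, which cuts the rRNA precursor, lay between 0.357 and 2.48 CPM. Vault RNA stood between 4.24 and 11.1 CPM, and telomerase RNA had 5 reads in all.

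Of the list of long noncoding RNA families 3 of 34 were tested, and of the cis-regulatory families 10 of 78, with medians of 0.66 and 0.01 for knockout over control, -0.20 and 0.36 for knockout over transgene and 0.46 and -0.38 for transgene over control. The conserved motif in an intron near the end of XIST, the transcript that silences an X chromosome in female cells, had 0, 122 and 257 reads in the knockout, 249, 247 and 1 with the transgene and 3, 1 and 340 in controls, where a count of 0 allows up to 3 reads. Every group held libraries with at least 122 reads and libraries with at most 3, and the labels do not give the sex of the embryos. Among families named for retroviral elements, the 2 with the most reads were highest in control 2. The Mason-Pfizer monkey virus packaging signal had 163, 141 and 120.1 CPM in the knockout, 104, 137 and 83.7 CPM with the transgene and 33.0, 320.4 and 33.3 CPM in controls. All knockout and all transgene libraries lay above control 1 and 3. edgeR called this family in knockout against control without control 2. Control 2 is the control above every knockout library, so the call follows from leaving it out and adds no support. The HIV primer binding site family had 6.96, 168 and 15.7 CPM in the same controls, beside 40.1 to 89.3 CPM in the knockout and 40.1 to 59.3 CPM with the transgene. The HIV-1 stem-loop 4 family did not follow them, with 11, 4 and 31 reads in the knockout, 6, 7 and 4 with the transgene and 13, 4 and 7 in controls.

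The 5 families with the smallest p in transgene against control were U7, SNORD38, SNORD37, SNORA7 and large subunit rRNA, all lower with the transgene and none past the threshold. SNORD38, a box C/D family, had 0.970, 0.907 and 0.460 CPM with the transgene and 1.58, 2.69 and 1.34 CPM in controls, which gave a log2 fold change of -1.25 (SE 0.42, edgeR adjusted p = 0.615). SNORD37, from an intron of the elongation factor gene Eef2, had 0.162, 0.255 and 0.399 CPM with the transgene and 0.446, 0.960 and 0.733 CPM in controls (-1.37, SE 0.55, edgeR adjusted p = 0.620). Neither overlapped between the groups with the main scaling. SNORD37 held only 141 reads in all 9 libraries, and on totals of named rows its transgene 3 lay above control 1. For SNORA7 the log2 fold change was -1.28 (SE 0.56, edgeR adjusted p = 0.620) and for large subunit rRNA -1.24 (SE 0.55, adjusted p = 0.620). Both rested on control 3, at 1.24 and 146 CPM, with the other controls at 0.446 and 0.461 CPM and at 30.0 and 43.7 CPM, and without control 3 the log2 fold changes were -0.50 and -0.12.

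miRNAs used as markers of cell types, all found in all 9 libraries, also differed in level between libraries. As DROSHA makes miRNAs, the number of such cells and the processing of their miRNAs cannot be told apart here. The summed level of 3 tubule miRNAs was 1846 to 2476 CPM in the knockout, 2382 to 3236 CPM with the transgene and 3861 to 5763 CPM in controls, so that the knockout lay below all controls. For 5 muscle miRNAs it was 398 to 9444 CPM in the knockout, 406 to 1445 CPM with the transgene and 188 to 1165 CPM in controls, with knockout 3 the highest. For 3 erythroid miRNAs it was 63270 to 105200 CPM in the knockout, 24240 to 71380 CPM with the transgene and 18510 to 49520 CPM in controls. For 4 leukocyte miRNAs it was 423 to 1294, 417 to 1116 and 350 to 674 CPM, for 3 neural miRNAs 1839 to 1956, 1670 to 2960 and 1748 to 3184 CPM, and for 2 endocrine and liver miRNAs 976 to 10490, 4392 to 19870 and 1111 to 10560 CPM, in knockout, transgene and control kidneys. Their part in the structural RNA values was not tested.

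Some rows with miRNA names lay inside structural RNA genes, and whether their reads were fragments of those RNAs was not tested. By position (GENCODE vM21, GRCm38), 21 known mature miRNAs among 1403 loci lay inside a structural RNA gene on the same strand, with 172984 reads in all. Most belonged to miR-1839-5p (chromosome 7:81529919-81529940, plus strand, in a gene annotated as a Cajal body RNA) and miR-3068-5p (chromosome 12:87437724-87437747, minus strand, in a gene annotated as a snoRNA). Their RefSeq sequences are shown with the seed, bases 2 to 8, in capitals.
miR-1839-5p: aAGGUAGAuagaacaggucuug
miR-3068-5p: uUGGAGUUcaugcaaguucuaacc
miR-1839-5p had 295, 302 and 375 CPM in the knockout, 391, 322 and 273 CPM with the transgene and 412, 322 and 413 CPM in controls. miR-3068-5p had 234, 271 and 208 CPM in the knockout, 196, 137 and 161 CPM with the transgene and 189, 157 and 255 CPM in controls. For both, the groups overlapped between knockout and control. For miR-3068-5p all knockout libraries lay above all transgene libraries, with a log2 fold change of 0.53 (SE 0.26, edgeR adjusted p = 0.574). Of the 16 such miRNAs tested, 10 had a positive log2 fold change for knockout over control (median 0.08), 10 for knockout over transgene (median 0.26) and 3 for transgene over control (median -0.26), and none passed the threshold.

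Of 456 predicted miRNA rows, 7 overlapped a structural RNA gene on the same strand, with 16144 of 132069 reads. The predicted row novel_mir1 (chromosome 11:106500990-106501065) covers the whole of Snord104, the sequence shown above, and had 19.0, 36.9 and 27.7 CPM in the knockout, 29.6, 15.3 and 5.12 CPM with the transgene and 27.6, 17.2 and 27.4 CPM in controls. The Rfam row of SNORD104 held more reads, and how reads were shared between the 2 names is not stated by the sources used. The row inside Snora65, novel_mir459, had 4.56, 5.79 and 3.06 CPM in the knockout, 3.98, 2.07 and 2.02 CPM with the transgene and 1.04, 1.07 and 1.27 CPM in controls, with all libraries of both DROSHA groups above all controls and no call by edgeR (adjusted p = 0.105 for knockout against control).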

How the data were processed

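Small RNA was sequenced from whole mouse kidneys at embryonic day 16.5, with 3 libraries in each of 3 groups. Per the labels' protocols, RNA was extracted with Trizol from frozen kidneys and libraries followed a BGI protocol. CASAVA 1.8, Bowtie2 and build mm10 are listed, per the submitters' processing notes, without role or order. The deposited counts are whole reads per small RNA name and add up to the total in each file header. The deposited TPM is that count per 1e6 of the header total and was not used for tests. How reads matching several names were assigned, and whether strand was used, is not given in the labels or files.

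Rows holding class totals (exon, intron, intergenic and repeat reads) were left out of library sizes and tests. All 4074 named rows were fitted with edgeR 4.0.16 in R 4.3.3: TMM factors, filterByExpr, a group factor of 3 levels over all 9 libraries, the quasi-likelihood F test and Benjamini-Hochberg adjustment over 1941 rows, called at 0.05. The fit's common biological coefficient of variation came to 0.613. DESeq2 1.42.0 was an alternative. CPM uses the TMM-scaled totals of named rows. Class shares use all counted reads and have no test. The fit was tested on simulated counts with changes put into the knockout libraries. For knockout against control it called 4.8% of 2-fold, 36.2% of 4-fold, 61.8% of 8-fold and 73.8% of 16-fold changes. It also called 4.5 unchanged rows per draw on average. A family without a call may therefore still differ between groups. The authors' replicate numbers were not used to pair libraries.

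The families, lists and tests were chosen with earlier results of these data known. Named were the 5 most abundant families of each class, the 5 with the smallest p in each comparison, said not to pass, and up to 4 of each list of families by role. Marker miRNAs of 6 cell types were taken from textbook knowledge. Gene positions and sequences came from GENCODE vM21 and RefSeq. Sequences of genes on chromosome 18, and of some other genes, are not reported here. Alternatives were other scalings, filters, row sets and denominators, a replicate block, and leaving out libraries.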

Additional observations from a re-analysis of the deposited data

Results flagged for a closer look

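Rows naming bacterial or archaeal RNA, which were left out of the families followed here, took more of the reads in 3 libraries than in any control. They made up 0.1034% of counted reads in knockout 1, 0.06665% in knockout 2 and 0.02911% in transgene 3, against at most 0.0246% in the controls. The rows with the most reads were bacterial small and large subunit rRNA, which held 49.8% and 27.2% of these reads, and betaproteobacterial tmRNA with 13.6%. Where these reads came from was not tested.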

How the results depend on the processing

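Calls were 0 in each comparison under the other scalings, filters and row sets with edgeR. With DESeq2 they were 7 in knockout against control and 5 in knockout against transgene. Leaving out a library gave 0 to 2 calls in knockout against control (1, the Mason-Pfizer monkey virus packaging signal, without control 2, and 2, SNORD93 and U13, without knockout 3) and 0 to 2 in knockout against transgene (2 without knockout 3). Without knockout 1 and 2, a setting chosen after the data were seen in which knockout 3 is assumed to vary like the other groups, they were 3 and 1, and the log2 fold change turned negative for SNORD93 (-0.0965 over control, -0.0754 over transgene), 5.8S rRNA (-0.73 and -0.80) and 7SL (-0.11 over transgene). With the replicate block calls were 0 in each comparison; libraries with the same number correlated at -0.217 to 0.0847 in their deviations, and the labels do not say whether a number marks a shared litter or batch. Without the tmRNA row, the log2 ratio of the share of other Rfam families was 0.15 for knockout over control and -0.13 for knockout over transgene, instead of 0.83 and 0.56.

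Counts of families whose groups do not overlap, also recomputed after the data were seen, moved most. On totals of named rows, of all reads, or with TMM factors from the families, transgene over control gave 5, 5 and 8 above (all rows 13.2%, 11.7% and 10.9%; families 3.23%, 3.23% and 5.16%) and 5, 7 and 8 below (all rows 3.97%, 5.26% and 1.6%; families 3.23%, 4.52% and 5.16%), and 10 below with factors from mature miRNAs (6.45%, all rows 9.22%). Knockout below control gave 0, 2 and 16 (all rows 9.17%, 10.6% and 14.4%; families 0%, 1.29% and 10.3%). Knockout against transgene gave 21 above on named rows and 16 with factors from the families (13.5% and 10.3%, all rows 5.72% and 2.58%), and 2, 2 and 13 below (1.29%, 1.29% and 8.39%, all rows 6.85%, 6.9% and 18.9%). Leaving out a library makes non-overlap easier to reach with fewer libraries. Families then numbered 20 to 45 for knockout above control (12.9% to 29%, all rows 13.2% to 17.6%), 7 to 16 for knockout below control (4.52% to 10.3%, all rows 17.2% to 22.3%), 36 to 63 for knockout above transgene (23.2% to 40.6%, all rows 9.74% to 15.9%), 1 to 6 for knockout below transgene (0.645% to 3.87%, all rows 10.4% to 12.3%), 0 to 11 for transgene above control (0% to 7.1%, all rows 9.94% to 15.8%) and 17 to 45 for transgene below control (11% to 29%, all rows 12.8% to 18.4%). The cause of the other changes was not tested. Depth limits families of few reads: 155 of the 527 passed the filter.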
